A study of Mus musculus with 120 samples.

Results

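Cytosolic sulfotransferases are described here through 7 genes, Sult1a1, Sult1b1, Sult1c2, Sult1d1, Sult1e1, Sult3a1 and Sult5a1, chosen by name from a table of normalised liver expression. The table held 24883 gene entries, of which 12203 averaged at least 1 and were tested, and all 7 genes were among them. Liver RNA was sequenced in 120 libraries from 10 Collaborative Cross strains, inbred mouse lines that each carry a different mosaic of the same founder genomes. In each strain, males and females ate either a high-fat, high-sucrose (HF/HS) diet or an ingredient-matched control diet with less fat and sucrose for 12 weeks. The HF/HS diet gave 42% of its energy as milkfat and held 0.2% cholesterol and over 30% sucrose. The strains were CC060, CC043, CC042, CC041, CC040, CC032, CC019, CC013, CC011 and CC003, none of the labels names a transgene or other treatment, and the ages of the mice are not given in the sources used here. Each of the 40 strain, sex and diet groups had 3 libraries, except the CC040 females on either diet, which had 2 after a pair of columns with identical values was left out. Values are normalised expression values with no stated unit, and differences are on the scale of log2(value + 1), written as the difference ± its standard error (SE).

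Cytosolic sulfotransferases move a sulfonate group from the donor PAPS onto small molecules such as steroids, thyroid hormones, catecholamines, phenols and drugs, which makes most of them more soluble and less active. Sult1e1 is the estrogen sulfotransferase, which inactivates estrogens, and its level in mouse liver is known to be low in lean animals and raised in several models of obesity and diabetes. Many hepatic sulfotransferases differ between male and female mice, a pattern known to follow the sex-specific rhythm of growth hormone release.

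The 7 genes lie on 5 chromosomes of the mm10 build. Sult1b1 (chr5:87513339-87538195), Sult1d1 (chr5:87554650-87569006) and Sult1e1 (chr5:87575968-87591611) are neighbours on the minus strand of chromosome 5. Sult1a1 is at chr7:126672870-126676357 (minus strand), Sult3a1 at chr10:33857722-33879475 (plus strand), Sult1c2 at chr17:53829637-53845958 (minus strand) and Sult5a1 at chr8:123142847-123158280 (minus strand). The coding sequences of the 7 genes were 50.1% to 63.6% identical to each other, the highest being Sult1b1 and Sult1d1. Sult3a1 and its neighbour Sult3a2 were 90.9% identical, so reads may be split between that pair and the value of Sult3a1 is uncertain to that extent.

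The 250 bases upstream of the start of the 3 neighbouring chromosome 5 genes, and of Sult3a1, are printed because the strain differences below turn on the first 3 and the sex difference on the last. They are RefSeq sequence of GRCm38.p6, the reference strain C57BL/6J, read 5′ to 3′ on the strand of the gene, and the strains' own sequence was not read. Capitals mark a match to 1 of 5 motifs searched on both strands.

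Sult1b1, chr5:87538196-87538445, minus strand: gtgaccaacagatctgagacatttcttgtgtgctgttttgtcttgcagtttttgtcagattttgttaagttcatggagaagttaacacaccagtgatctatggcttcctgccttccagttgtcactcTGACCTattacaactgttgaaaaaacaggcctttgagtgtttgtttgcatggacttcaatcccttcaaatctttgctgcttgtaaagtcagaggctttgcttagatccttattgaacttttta
Sult1d1, chr5:87569007-87569256, minus strand: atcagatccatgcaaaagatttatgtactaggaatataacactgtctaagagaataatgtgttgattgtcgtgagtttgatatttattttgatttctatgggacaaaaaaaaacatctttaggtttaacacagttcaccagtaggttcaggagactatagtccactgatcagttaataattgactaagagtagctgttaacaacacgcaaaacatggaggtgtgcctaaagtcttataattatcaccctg
Sult1e1, chr5:87591612-87591861, minus strand: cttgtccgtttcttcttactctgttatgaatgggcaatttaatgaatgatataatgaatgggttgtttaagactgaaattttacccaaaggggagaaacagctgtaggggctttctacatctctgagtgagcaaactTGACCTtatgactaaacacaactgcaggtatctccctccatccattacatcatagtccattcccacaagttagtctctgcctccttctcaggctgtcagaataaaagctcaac
Sult3a1, chr10:33857472-33857721, plus strand: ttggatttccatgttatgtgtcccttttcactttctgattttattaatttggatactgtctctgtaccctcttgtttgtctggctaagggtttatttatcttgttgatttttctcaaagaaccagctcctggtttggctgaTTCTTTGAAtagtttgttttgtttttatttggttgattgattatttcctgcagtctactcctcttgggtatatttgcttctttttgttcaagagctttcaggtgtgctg

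The motifs were AGGTCA (the hexamer of nuclear receptors), TTCNNNGAA (the STAT element), TATAAA (the TATA box), TGTTTAC (FOXA) and CCAAT (the CCAAT box). The Sult1b1 and Sult1e1 windows each held AGGTCA on the other strand, read here as TGACCT, at bases -123 to -118 and -113 to -108 before the start. For Sult1e1 the bases after the start used were not found whole in a GENCODE transcript, so its positions are less certain. The Sult3a1 window held TTCTTTGAA at bases -109 to -101, and the Sult1d1 window held none of the 5. Over 32851 windows of the same length before mouse gene starts, 14% held AGGTCA, 7.02% TTCNNNGAA, 12.4% TATAAA, 3.17% TGTTTAC and 33.8% CCAAT. A match describes letters only, and its absence says only that those letters are not in that window.

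The libraries were not all of 1 kind. The sum of all values was 3192000 to 4630000 in the 12 CC003 libraries, against 926900 to 1987000 in the other 106, and Malat1, a nuclear noncoding RNA, was at 53.1 to 121 in the 12 CC060 libraries, against 645 to 1967 in the 94 libraries of the 8 strains other than CC003 and CC060. Differences of CC003 or CC060 from other strains therefore cannot be told apart from what sets their libraries apart, while diets and sexes were compared within a strain. The hepatocyte marker Ttr was at 2037 or more in every library, and albumin, which every hepatocyte makes, was listed at 0 in 102 libraries and above 0 in all 12 of CC003, all 3 of CC032 males on HF/HS and 1 of CC011 females on HF/HS. A value of 0 for a gene here may thus be a failed estimate. In bulk tissue, fewer cells of a type and less RNA per cell cannot be told apart. Xist was at 28.5 to 135 in every library labelled female and at 0.00857 to 2.1 in every library labelled male. The Y-linked gene Ddx3y was at 1.15 in the first CC042 male HF/HS library and at 7.01 to 74.0 in the other males, and at up to 2.30 in females, the highest being the second CC019 female HF/HS library. Differences between the diets that passed and rest on those libraries are given with and without them.

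The HF/HS diet moved 3 of the 7 genes when all strains and both sexes were averaged. Sult1e1 and Sult1b1 rose and Sult1a1, the main phenol sulfotransferase of liver, fell, while Sult1c2, Sult1d1, Sult3a1 and Sult5a1 did not pass the test. Among all genes tested, 32.6% passed it (17.2% higher and 15.4% lower), so 3 of 7 is near the background. The differences were 0.51 ± 0.16 for Sult1e1 (adjusted p = 0.00744, limma), 0.19 ± 0.05 for Sult1b1 (adjusted p = 0.00278) and -0.28 ± 0.06 for Sult1a1 (adjusted p = 0.000141). The median difference of the 7 genes was -0.01, against 0.00 over all genes tested. The other 4 genes lay between -0.32 ± 0.19 for Sult3a1 (adjusted p = 0.19) and 0.03 ± 0.07 for Sult1d1 (adjusted p = 0.755). With the 10 strains as the units in place of the libraries, 0 of the 7 passed in limma and 2 had an unadjusted p under 0.05 (adjusted p = 0.0786 for Sult1a1, 0.0909 for Sult1b1 and 0.25 for Sult1e1).

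In males, the same 3 genes passed, where 20.9% of all genes did (11% higher and 9.93% lower). Sult1e1 rose by 0.96 ± 0.22 (adjusted p = 0.000511, limma), Sult1b1 rose by 0.28 ± 0.07 (adjusted p = 0.00278) and Sult1a1 changed by -0.27 ± 0.08 (adjusted p = 0.0153). In females, where 17.7% of all genes passed (9.6% higher and 8.08% lower), only Sult1a1 did among the 7, with -0.29 ± 0.09 (adjusted p = 0.011, limma). Sult3a1 in females had the largest mean difference of the 7, -0.72 ± 0.27, and did not pass (adjusted p = 0.0507), though it passed under 14 of 39 alternative settings (adjusted p = 0.00212 to 0.475). The call for Sult1a1 was lost without CC032 in males (adjusted p = 0.0958) and in females (adjusted p = 0.0524), without CC041 in males (adjusted p = 0.0807) and without CC060 in females (adjusted p = 0.0638). The test of the difference between the sexes in diet response called 0 of the 7 genes and 0.877% of all genes, and 3 of the 7 (Sult1d1, Sult1e1 and Sult3a1) had an unadjusted p under 0.05. For Sult1e1 that difference, males minus females, was 0.89 ± 0.31 (adjusted p = 0.188, limma), and it became 1.30 with an adjusted p of 0.0161 without strain CC019.

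**Figure D1:**
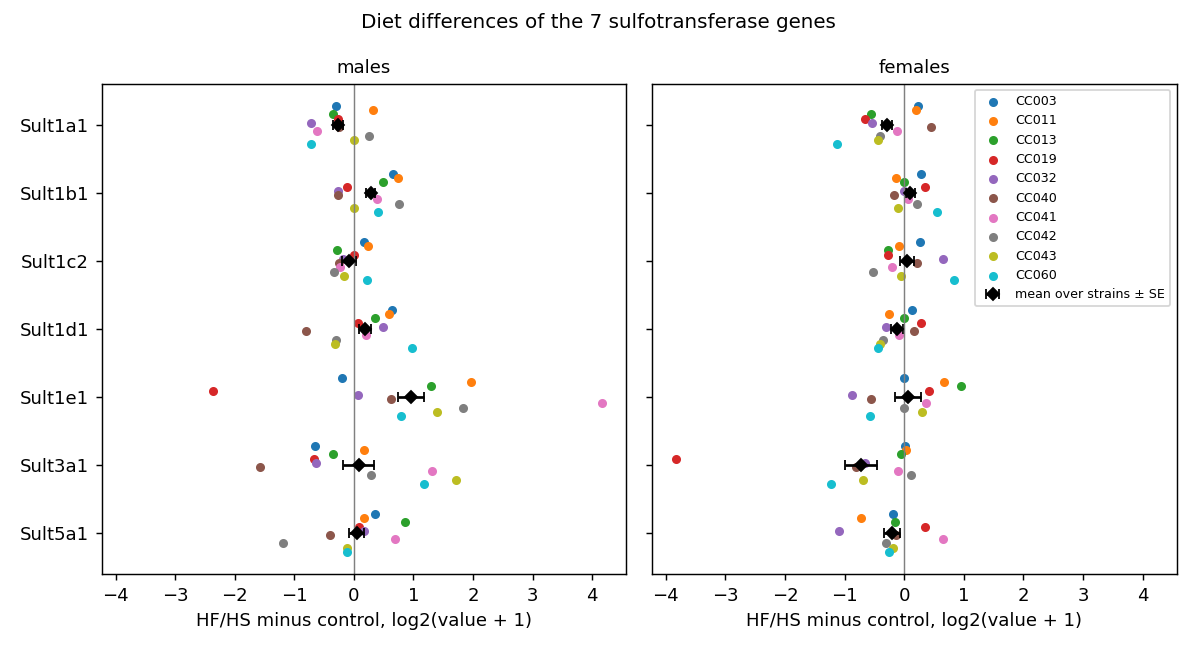
Differences between the HF/HS and control diets on the log2(value + 1) scale for each of the 7 genes, males left and females right. Each coloured point is 1 strain, and black diamonds with bars are the mean over the 10 strains ± SE. Sult1e1 in CC041 males (4.17) and Sult3a1 in CC019 females (-3.83) lie farthest from 0.

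Sult1e1 rose on the HF/HS diet most in CC041 males. It was at 37.1, 35.1 and 33.9 in CC041 males on HF/HS, against 1.33, 0.663 and 1.12 in CC041 males on control. All 3 HF/HS livers lay above all 3 control livers, and their mean was 34 times the control mean. The difference was 4.17 ± 0.69 (adjusted p = 3.88e-05, limma), in a comparison that called 4.71% of all genes. In CC041 females the diets overlapped, with 16.7, 15.3 and 12.0 on HF/HS and 8.39, 21.5 and 7.33 on control (0.36 ± 0.69, adjusted p = 1). The HF/HS livers of CC041 males were thus above every CC041 female liver, and their control livers below every one.

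In 3 further strains the male HF/HS livers lay wholly above the male control livers without passing the test of that strain. In CC042 males Sult1e1 was at 50.3, 75.6 and 42.6 on HF/HS, against 11.3, 16.1 and 17.2 on control (1.83 ± 0.69, adjusted p = 0.119, limma). The acute-phase genes Saa1 and Lcn2 moved with that comparison, Saa1 being at 521 to 735 in CC042 males on HF/HS and at 4482 to 20130 in CC042 males on control, and Lcn2 at 211 to 264 on HF/HS and at 296 to 866 on control. Their part in the values of CC042 males was not tested. Over all strains, the male difference of Sult1e1 was 0.96 (adjusted p = 0.000651) without the first CC042 male HF/HS library. CC011 males had 4.39, 6.84 and 6.59 on HF/HS, against 1.06, 0.70 and 0.549 on control (1.96 ± 0.69, adjusted p = 0.5). CC013 males had 3.71, 2.60 and 2.97 on HF/HS, against 0.438, 1.15 and 0.468 on control (1.30 ± 0.69, adjusted p = 0.741). The shares of all genes that lay wholly higher on HF/HS in males were 16.1% in CC041, 24.4% in CC042, 5.19% in CC011 and 15.8% in CC013.

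In the other strains the male values on the diets overlapped, with 2 below control on average. CC019 males had 28.2, 18.7 and 3.10 on HF/HS, against 83.2, 162 and 22.4 on control (-2.36 ± 0.69, adjusted p = 0.178, limma). CC040 males had 387, 471 and 300.4 on HF/HS and 252, 335 and 176 on control, CC043 males had 107, 168 and 125 on HF/HS and 52.5, 138 and 15.8 on control, and CC060 males had 134, 50.6 and 133 on HF/HS and 48.2, 99.9 and 34.7 on control. In 8 of the 10 strains the male mean of log2 values was higher on HF/HS, the exceptions being CC019 and CC003. The mean rise in males rested in part on CC041: without that strain it was 0.60 (adjusted p = 0.0744, limma), and the average over both sexes was 0.32 (adjusted p = 0.165).

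In females Sult1e1 was higher on HF/HS in 5 strains, lower in 4 and listed at 0 on both diets in CC003, with a mean difference of 0.07 ± 0.22 (adjusted p = 0.872, limma). Only in CC040 females did the diets not overlap, with 83.0 and 71.2 on HF/HS and 141 and 92.0 on control, where 16.2% of all genes also lay wholly lower on HF/HS. CC042 females had 357, 438 and 475 on HF/HS and 473, 378 and 419.6 on control. CC060 females had 56.4, 61.8 and 101 on HF/HS and 759, 29.5 and 51.2 on control. The highest Sult1e1 value of all libraries was that of the first CC060 female control library, which also held the highest Sult1d1 value (633) and correlated with its own group less well than any other CC060 library (mean r = 0.934). The diet effects of the 10 strains, averaged over the sexes, differed for Sult1e1 (adjusted p = 0.0187, limma F test) and Sult1a1 (adjusted p = 0.0282), 2 of the 7 genes where 5.54% of all genes did. Without CC041 the value for Sult1e1 was 0.198.

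**Figure D2:**
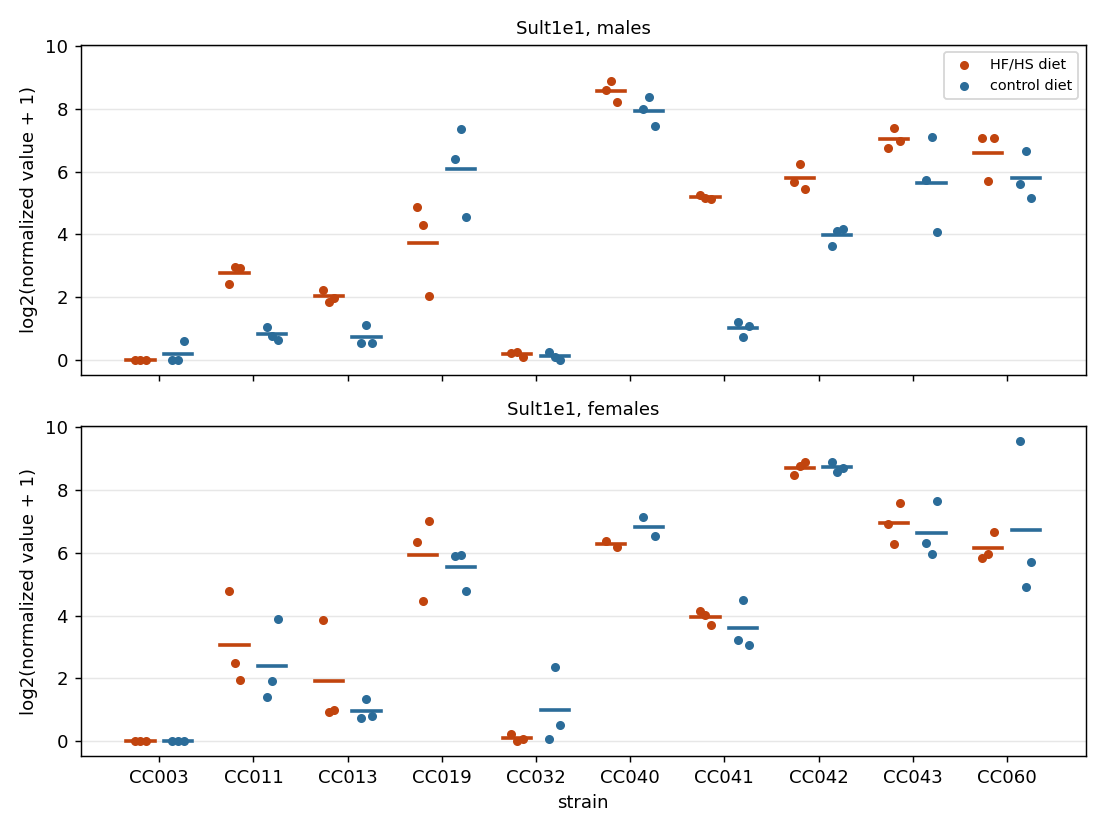
Sult1e1 in every library on the log2(value + 1) scale, by strain, males above and females below. Each point is 1 library, orange for HF/HS and blue for control, and bars are group means of the log2 values. CC041 males are at 33.9 to 37.1 on HF/HS and at 0.663 to 1.33 on control before the log, and CC003 is at or near 0 throughout.

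Sult1a1, which sulfonates simple phenols and many drugs, was lower on HF/HS in 7 of 10 strains in each sex. Over all strains it was at 38.4 to 632 in males on HF/HS (median 241), against 42.5 to 547 in males on control (median 355). In females it was at 109.5 to 690.3 on HF/HS (median 417), against 175 to 1048 on control (median 591). Female HF/HS livers lay wholly below control livers in CC013, CC032, CC042 and CC043 and wholly above them in CC040, and male HF/HS livers wholly below in CC032, CC041 and CC060 and wholly above in CC042. Of all genes, the share wholly lower on HF/HS was 6.24% in CC013 females, 17% in CC032 females, 13.2% in CC042 females and 12.6% in CC043 females, and the share wholly higher was 16.9% in CC040 females. In males it was 12.3% in CC032, 15.7% in CC041 and 10.5% in CC060 for lower values and 24.4% in CC042 for higher ones.

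Among females the largest fall of Sult1a1 was in CC060, and CC060 males passed the test as well. Among males the largest mean fall was in CC032, given below. CC060 females had 248, 149.7 and 384 on HF/HS, against 877, 490.4 and 347 on control (-1.13 ± 0.27, adjusted p = 0.00912, limma, where 2.44% of all genes passed). CC060 males had 96.6, 84.0 and 82.6 on HF/HS, against 108, 122 and 230.1 on control (-0.72 ± 0.27, adjusted p = 0.0407, where 22% passed). The female groups overlapped and the male groups did not. The female call rested on the first control library, without which the difference was -0.76 (adjusted p = 0.223), and the male call was lost in 13 of 36 alternatives, the weakest being without the third male control replicate of every strain (-0.39, adjusted p = 0.635). Ttr was at 27740 in the third CC060 male control library, against 10910 in the first and 8219 in the second. The part of that library's high Ttr in Sult1a1 was not tested. CC032 males showed the tightest separation short of the test, with 261, 255 and 249 on HF/HS against 381, 452 and 439.9 on control (-0.73 ± 0.27, adjusted p = 0.206). Those HF/HS libraries stood apart from their controls in other genes too, with albumin at 12870 to 42990 on HF/HS and at 0 on control, Ttr at 2482 to 6367 on HF/HS and 7484 to 10100 on control, and Saa1 at 395 to 22120 on HF/HS and 257 to 419 on control. The part of these shifts in Sult1a1 was not tested.

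Sult1b1, which sulfonates thyroid hormones and phenols, was higher on HF/HS in 7 of 10 strains in males and in 6 in females. In CC042 males it was at 28.8, 24.6 and 26.0 on HF/HS, against 13.0, 14.7 and 18.6 on control (0.75 ± 0.23, adjusted p = 0.0441, limma, where 4.35% of all genes passed). That call was lost in 14 of 37 alternatives (adjusted p up to 0.214), among them without the first HF/HS library (0.69, adjusted p = 0.169). These are the CC042 males whose Saa1 and Lcn2 were higher on control, as given above. The male groups did not overlap there, nor in CC003, CC011, CC013 and CC060, all higher on HF/HS, nor in CC032, lower. CC013 males had 32.6, 31.96 and 29.1 on HF/HS against 21.2, 21.2 and 23.1 on control, and CC011 males 30.1, 34.0 and 20.1 on HF/HS against 18.9, 18.4 and 11.7 on control. Of all genes in males, 24.4% lay wholly higher on HF/HS in CC042, 8.74% in CC003, 5.19% in CC011, 15.8% in CC013 and 9.15% in CC060, and 12.3% wholly lower in CC032. Without CC003 and CC060 the male difference was 0.22 (adjusted p = 0.0557) and that over both sexes 0.12 (adjusted p = 0.112). In females the mean difference was 0.10 ± 0.08 (adjusted p = 0.357), and 0.17 (adjusted p = 0.0371) without 1 library, the first CC011 female HF/HS liver, which stood apart from its group (mean r = 0.90) with high values of the acute-phase genes Lcn2 (21580) and Saa1 (99010).

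Sult1d1, which sulfonates catecholamines in mouse, passed the test in CC060 males and in no other strain and sex. It was at 112, 80.4 and 95.4 in CC060 males on HF/HS, against 48.9, 73.6 and 30.3 in CC060 males on control. The groups did not overlap (0.98 ± 0.31, adjusted p = 0.0175, limma, where 22% of all genes passed). Without the third male control replicate of every strain the difference was 0.65 (adjusted p = 0.411, limma). The third CC060 male control library, lowest of those values, is the one with the high Ttr given above. Its part in this difference was not tested. Males of 3 more strains lay wholly higher on HF/HS without passing, CC003 at 0.64 ± 0.31 (adjusted p = 0.243), CC013 at 0.36 ± 0.31 (adjusted p = 0.942) and CC032 at 0.49 ± 0.31 (adjusted p = 0.70). In CC040 males it was lower on HF/HS without overlap, at 72.0, 69.7 and 73.6 on HF/HS and 123.1, 127 and 127 on control (-0.80 ± 0.31, adjusted p = 0.382). Of all genes, 9.15% lay wholly higher on HF/HS in CC060 males, 8.74% in CC003, 15.8% in CC013 and 11.6% in CC032 males, and 11.5% wholly lower in CC040 males. Averaged over strains it did not pass in males (0.19 ± 0.10, adjusted p = 0.169, and 0.30 with an adjusted p of 0.0351 without CC040) or in females (-0.12 ± 0.10, adjusted p = 0.419).

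Sult1c2 and Sult5a1 passed in no comparison between the diets, while 0.0246% to 22% of all genes passed within single strains and sexes. Sult1c2 was at 0.207 to 11.9 in males on HF/HS (median 4.53) and 0.165 to 17.3 in males on control (median 4.68), and at 0.217 to 26.5 in females on HF/HS (median 9.01) and 0.657 to 32.1 in females on control (median 8.31). Its largest difference was 0.84 ± 0.36 in CC060 females (adjusted p = 0.224, limma). For Sult5a1 the largest was in CC042 males, at 8.14, 7.45 and 9.44 on HF/HS and 22.7, 20.1 and 18.3 on control, without overlap (-1.19 ± 0.40, adjusted p = 0.0713). In CC013 males Sult5a1 was higher on HF/HS, at 35.1, 36.1 and 36.5, than on control, at 24.4, 16.6 and 18.1 (0.86 ± 0.40, adjusted p = 0.651), so the diets separated in opposite directions in those strains, where 17.5% of all genes lay wholly lower in CC042 males and 15.8% wholly higher in CC013 males.

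Sult3a1, known as an amine sulfotransferase, fell on HF/HS in CC019 females. It was at 47.6, 105 and 910.1 in CC019 females on HF/HS, against 3454, 1294 and 3024 in CC019 females on control, with no overlap (-3.83 ± 0.83, adjusted p = 0.00371, limma, where 0.992% of all genes passed). Female HF/HS livers also lay wholly below control livers in CC032 (1475, 2183 and 1654 against 2285, 2856 and 3181), CC043 (2135, 2004 and 1575 against 3052, 2897 and 3219) and CC060 (273, 113 and 263 against 475, 473 and 465), though none passed alone. The shares of all genes wholly lower on HF/HS in females were 6.37% in CC019, 17% in CC032, 12.6% in CC043 and 7.1% in CC060.

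Lists of sex-biased liver genes moved with Sult3a1 in CC019 females. The mean log2 value of 17 male-biased genes was 6.13 to 7.18 in CC019 females on HF/HS and 5.15 to 6.28 in CC019 females on control, against 6.89 to 8.94 in all males and 4.08 to 5.91 in females of the 8 strains other than CC019 and CC040. The mean of 20 female-biased genes was 4.38 to 6.27 in CC019 females on HF/HS and 5.91 to 7.39 in CC019 females on control. That mean was 1.42 to 4.36 in all males. In females of the 8 strains other than CC019 and CC040 it was 4.15 to 7.70, lowest in the first CC011 female HF/HS library. Whether that list and Sult3a1 share a source was not tested. The CC019 value was lost in 4 of 37 alternatives, among them without the second CC019 female HF/HS library (-3.50, adjusted p = 0.0602), the weakest being without the first female HF/HS replicate of every strain (-2.94, adjusted p = 0.234), and without CC019 the mean female difference was -0.38 (adjusted p = 0.361).

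Sult3a1 was far lower in males than in females on either diet. On HF/HS it was at 0.0632 to 32.7 in males (median 2.42) and at 2.43 to 2477 in females (median 910.1). On control it was at 0 to 60.2 in males (median 1.69, listed at 0 in 1 library) and at 1.91 to 3454 in females (median 1372). Male livers lay wholly below female livers in 10 of 10 strains on HF/HS and in 9 of 10 on control, where 10.9% to 18.6% of all genes did so per strain on HF/HS and 8.63% to 21.6% on control. The difference, male minus female, was -7.30 ± 0.27 on HF/HS (adjusted p = 2.84e-39, limma) and -8.11 ± 0.27 on control (adjusted p = 1.58e-42).

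CC040 was the exception on control. On HF/HS CC040 males had 0.214, 0.0751 and 0.0632 and CC040 females 78.7 and 2.43. On control CC040 males had 2.47, 4.20 and 1.02 and CC040 females 289 and 1.91, so 1 of the 2 female livers lay within the male range. In CC040 females Xist was at 60.4 to 99.2, within the range of females, the male-biased genes averaged 6.13 to 6.53 and the female-biased genes 4.45 to 6.53. Females of the 8 strains other than CC019 and CC040 had 4.08 to 5.91 for the male-biased and 4.15 to 7.70 for the female-biased genes. The part of those lists in the low Sult3a1 of CC040 females was not tested. The sex differences on control differed between strains for Sult3a1 (adjusted p = 0.00456, limma F test), and did not without CC040 (adjusted p = 0.599).

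**Figure D3:**
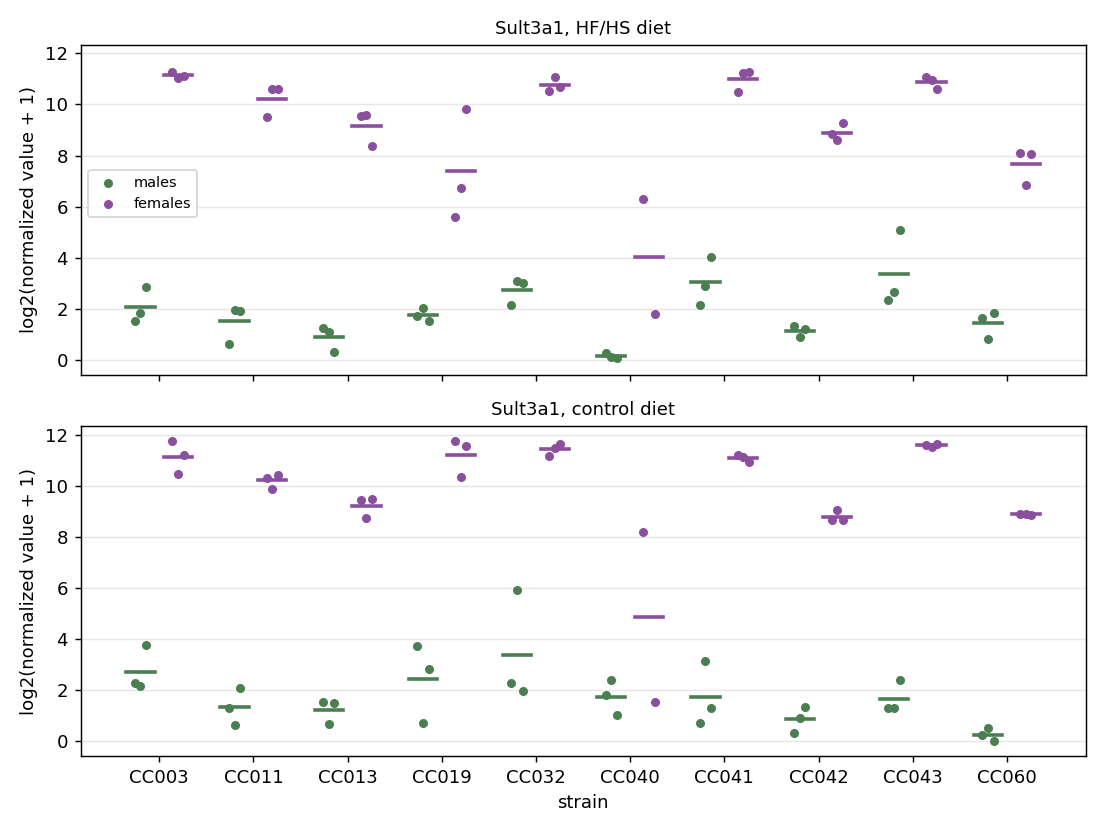
Sult3a1 in every library on the log2(value + 1) scale, by strain, HF/HS above and control below. Each point is 1 library, green for males and purple for females, and bars are group means of the log2 values. The CC040 females lie nearest the males, with 1 library on each diet at 2.43 or less before the log.

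Of the other genes, 4 were also lower in males on the control diet, which makes 5 of 7, while 43.5% of all genes differed by sex and 18.8% were lower in males. The differences were -0.96 ± 0.09 for Sult1a1 (adjusted p = 1.29e-16, limma), -1.01 ± 0.22 for Sult1e1 (adjusted p = 0.00011), -0.66 ± 0.10 for Sult1d1 (adjusted p = 4.71e-08) and -0.66 ± 0.12 for Sult1c2 (adjusted p = 1.89e-06). Sult1b1 (0.07 ± 0.07, adjusted p = 0.506) and Sult5a1 (-0.14 ± 0.13, adjusted p = 0.384) did not pass. On HF/HS, where 45.4% of all genes differed (20.3% lower and 25.1% higher in males), Sult1a1 (-0.93 ± 0.09), Sult1c2 (-0.79 ± 0.12) and Sult1d1 (-0.35 ± 0.10) were again lower in males and Sult1b1 was higher (0.24 ± 0.07, adjusted p = 0.00578). With strains as the units, Sult1e1 on control did not pass (adjusted p = 0.184, limma). Nor did Sult1b1 (adjusted p = 0.117) and Sult1d1 (adjusted p = 0.13) on HF/HS. Sult1e1 did not pass on HF/HS (-0.12 ± 0.22, adjusted p = 0.69), and whether its sex difference changed with diet is the test given above, which did not pass.

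The mean sex difference of Sult1e1 on control differed in sign between strains, though of those given here only the ones lower in males passed. CC042 males had 11.3, 16.1 and 17.2 on control, and CC042 females 473, 378 and 419.6 (-4.76 ± 0.69, adjusted p = 8.32e-08, limma, where 9.57% of all genes passed). Saa1 was at 4482 to 20130 in those males and at 25.2 to 324 in those females, and its part was not tested. CC041 males had 1.33, 0.663 and 1.12 on control, and CC041 females 8.39, 21.5 and 7.33 (-2.58 ± 0.69, adjusted p = 0.0118, where 5.15% passed). CC040 males lay wholly above CC040 females, at 252, 335 and 176 in males and 141 and 92.0 in females (1.11 ± 0.77, adjusted p = 0.644), where 25.8% of all genes lay wholly higher in males. The strains' sex differences on control differed for Sult1e1 (adjusted p = 0.000169, limma F test; 0.164 without CC042), and 4 of the 7 genes passed that test, as did 12.4% of all genes. On HF/HS males still lay wholly below females in CC042, as did 18.6% of all genes, wholly above in CC040, as did 19% of all genes, and wholly above in CC041, as did 15.3%.

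Sult1a1 was lower in males without overlap in 9 of 10 strains on either diet, and CC011 was the exception. The ranges over strains of the shares of all genes wholly lower in males, on HF/HS and on control, are given with Sult3a1 above. CC011 males had 441, 518 and 377 on control, and CC011 females 404, 264 and 378. On HF/HS CC011 males had 542, 632 and 489 and CC011 females 358, 409 and 418, wholly higher in males, where 12.6% of all genes were so. The widest gap on control was in CC019, with 55.0, 42.5 and 115 in males and 365, 175 and 388 in females (-2.15 ± 0.27, adjusted p = 7.59e-10, limma, where 7.22% of all genes passed). The strains' sex differences on control differed for Sult1a1 (adjusted p = 9.34e-06, limma F test).

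Sult1d1 passed the test of sex in CC003, CC032 and CC060 on control, lower in males of each. CC003 males had 10.7, 4.98 and 14.2 on control and CC003 females 47.9, 29.6 and 32.8 (-1.86 ± 0.31, adjusted p = 5.72e-06, limma, where 9.8% of all genes passed). CC032 males had 26.9, 25.3 and 16.4 on control and CC032 females 46.0, 54.4 and 77.1 (-1.33 ± 0.31, adjusted p = 0.00247, where 4.59% passed). CC060 males had 48.9, 73.6 and 30.3 on control and CC060 females 633, 125.5 and 76.4 (-1.91 ± 0.31, adjusted p = 1.46e-06, where 33.4% passed). On control, males also lay wholly below females in CC013, CC040 and CC041 without passing, so that 6 strains separated in that direction, where 8.87% of all genes did so in CC003, 14% in CC013, 11.6% in CC032, 17.5% in CC040, 11.5% in CC041 and 8.63% in CC060. Males on HF/HS lay wholly below females in 4 strains, CC003, CC032, CC040 and CC060. The range of such shares of all genes on HF/HS is given with Sult3a1 above. In CC011 males on HF/HS lay wholly above females (181 to 266 in males and 107 to 177 in females), as did 12.6% of all genes. No other strain passed for Sult1d1 on control, and the strains' sex differences differed (adjusted p = 0.000204, limma F test). Without CC003 the sex difference of Sult1d1 on HF/HS was -0.23 (adjusted p = 0.0554). Sult1c2 was lower in males in all 10 strains on each diet and passed alone in CC043, with 6.83, 5.49 and 7.09 in males and 32.1, 27.7 and 16.2 in females on control (-1.77 ± 0.36, adjusted p = 0.000221, where 6.62% of all genes passed).

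**Figure D4:**
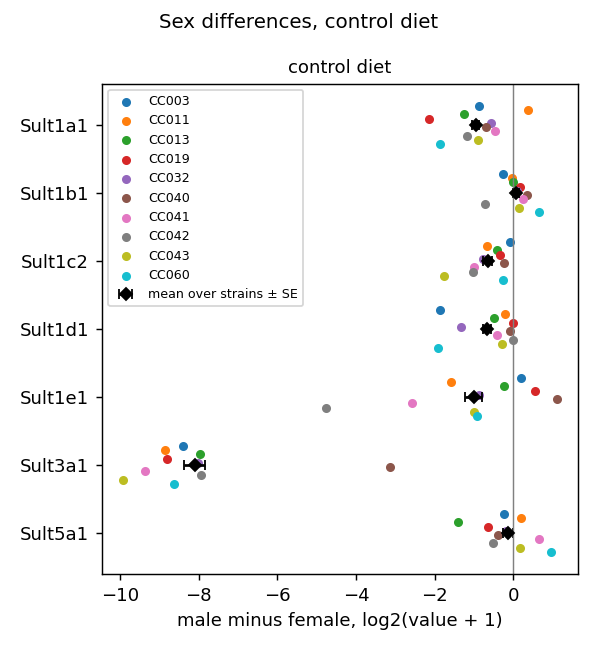
Male minus female differences on the control diet, log2(value + 1) scale, for the 7 genes. Coloured points are the 10 strains and black diamonds the mean over strains ± SE. Sult3a1 runs from -9.92 to -7.93 in 9 strains and is at -3.13 in CC040, and Sult1e1 runs from -4.76 in CC042 to 1.11 in CC040.

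Strain set a wide range for every gene on the control diet. In females all 7 genes differed between the 8 strains other than CC003 and CC060 (adjusted p under 0.05, limma F test), as did 67.2% of all genes. In males 6 of 7 did, where 70.2% of all genes did, the exception being Sult3a1 (adjusted p = 0.124). Both counts are therefore near the background.

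Sult1e1 ranged most. In females on control it was highest in CC042 (424 ± 47.6, SD, n = 3), then CC060 (29.5 to 759), CC040 (116 ± 34.3, n = 2), CC043 (113 ± 75.3, n = 3), CC019 (48.4 ± 18.9, n = 3), CC041 (12.4 ± 7.90, n = 3), CC011 (1.67 to 13.9), CC032 (0.0504 to 4.14), CC013 (0.688 to 1.56) and CC003, where every library was listed at 0. Neighbours in that order overlapped except CC043 and CC019, CC019 and CC041, and CC013 and CC003. In males on control the order was CC040 (254 ± 79.2, SD, n = 3), CC019 (89.3 ± 70.1), CC043 (68.8 ± 62.8), CC060 (60.9 ± 34.4), CC042 (14.9 ± 3.14), CC041 (1.04 ± 0.34), CC011 (0.768 ± 0.26), CC013 (0.687 ± 0.41), then CC003 and CC032, each at 0.531 or less. CC040 stood clear of CC019, CC060 of CC042, and CC042 of CC041.

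For the other genes, only the ends of the order are given. Sult1a1 on control was highest in CC042 females (866 ± 67.9, SD, n = 3) and CC043 females (843 ± 178), which overlapped, and lowest in CC019 females (309 ± 117). In males it was highest in CC043 (453.5 ± 82.9) and lowest in CC019 (71.0 ± 39.0), 6.39 times apart. Sult1c2 was highest in CC041 (26.8 ± 2.73 in females and 13.3 ± 3.60 in males) and lowest in CC019 (0.702 ± 0.04 in females and 0.363 ± 0.25 in males), 38.2 times apart in females and 36.5 times in males. Sult5a1 was highest in CC013 females (53.5 ± 8.54) and lowest in CC041 females (3.68 ± 0.29), and its male order put CC060 first (21.1 to 85.9) and CC011 last (5.51 ± 2.23). Sult3a1 in females was highest in CC043 (3056 ± 161), with CC032, CC019, CC003 and CC041 overlapping it or the next in turn, and lowest in CC042 (445 ± 72.7) and CC040.

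The 3 neighbours on chromosome 5 were all low in CC003 and CC032. Median Sult1b1 over the libraries of a strain was 2.67 in CC003 and 3.13 in CC032, against 19.5 to 32.3 in the 8 strains other than CC003 and CC032. Median Sult1d1 was 22.4 in CC003 and 41.3 in CC032, against 103.5 to 213 in those 8. Median Sult1e1 was 0 in CC003, where 11 of 12 libraries were listed at 0, and 0.116 in CC032, against 1.07 to 216 in those 8. Medians of CC003 and CC032 lay below those of the 8 for all 3 genes, and for 3.22% of all genes. For Sult1b1 no library overlapped, with a highest value of 4.80 in CC003 and CC032 and a lowest of 5.44 in the other strains, a separation found in 0.0246% of all genes. Sult1d1 reached 77.1 in CC003 and CC032, above the lowest of the others (30.3), and Sult1e1 reached 4.14, above 0.438.

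The low values did not extend to all genes beside the 3. Towards lower coordinates lie Ugt2 genes for glucuronosyltransferases, which conjugate steroids and drugs with glucuronic acid. Ugt2b37 was higher in those strains, with medians of 65.6 in CC003 and 113 in CC032, against 8.76 to 28.8 in the other 8. Ugt2a3 was the only other tested gene of the stretch with both medians lowest, at 164 in CC003 and 176 in CC032, against 188 to 327. Ugt2b5 was lowest in CC032, at 293, and within the range in CC003, at 462, against 383 to 719. Ugt2b35 (68.1 and 72.7 against 45.0 to 134) and Ugt2b36 (616 and 529.5 against 512 to 716) lay within the range of the other strains. For CC003 these differences cannot be told apart from what sets its libraries apart. CC032 libraries had sums of values and Malat1 within the range of the other 7 strains without CC003 and CC060, but 3 of them, the males on HF/HS, differed in albumin.

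**Figure D5:**
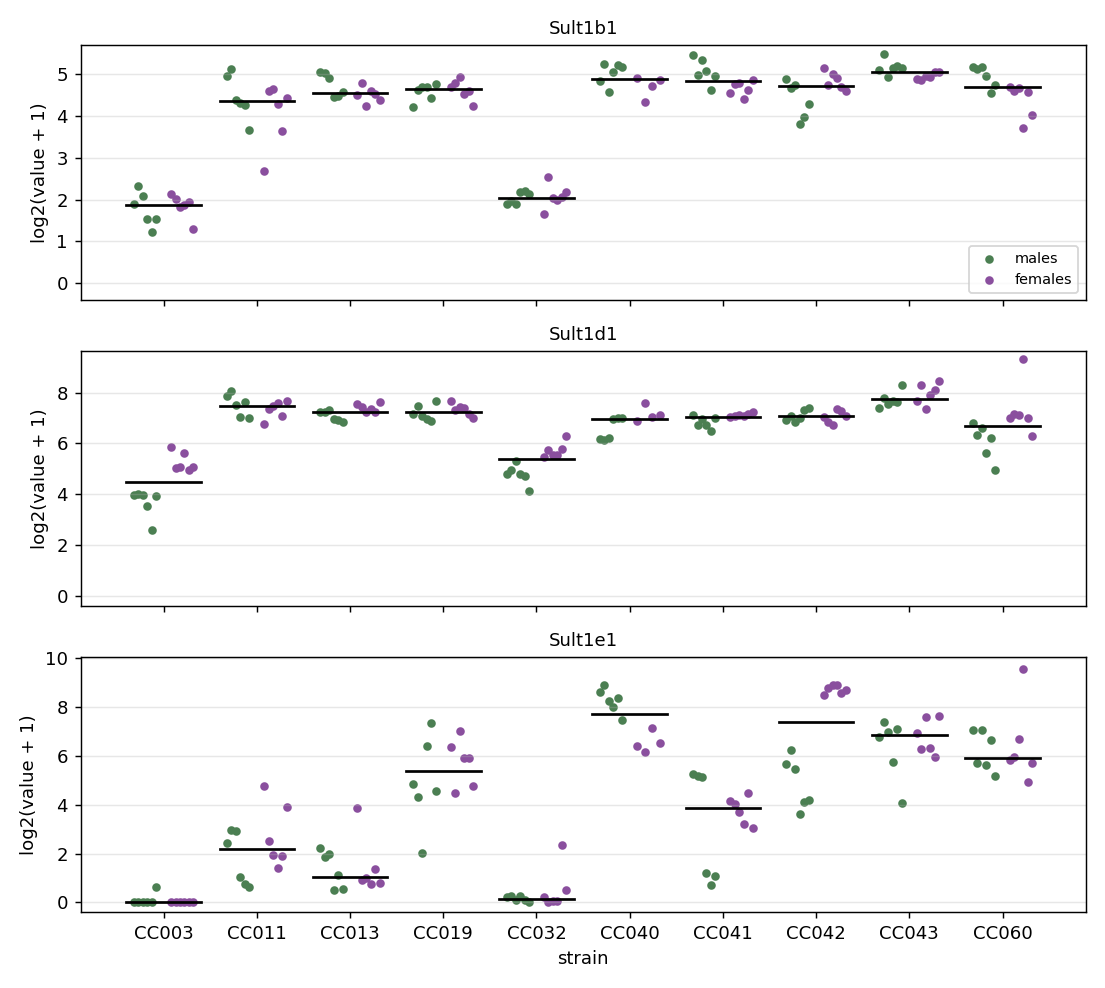
The 3 neighbouring genes of chromosome 5 in every library on the log2(value + 1) scale, by strain, green for males and purple for females, HF/HS libraries left of control within each sex. Black bars are strain medians. CC003 and CC032 are lowest for all 3 genes, without overlap for Sult1b1.

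Across the 32 strain, sex and diet groups without CC003 and CC060, group means of Sult1b1 and Sult1d1 had a Pearson r of 0.81, which was 0.06 over 28 groups without CC032, so that relation rested on CC032. Sult1b1 and Sult1e1 had 0.65, or 0.51 without CC032, and Sult1a1 and Sult1c2 had 0.56, or 0.55. The groups share strains, so these values are a description. The genes whose group means were most like a member's over the same 32 groups were Cyp3a41a (r = 0.97), Cyp3a41b (0.96) and Rsph4a (0.93) for Sult3a1, the first a pair of near-identical cytochrome P450 genes and the last 1 of its neighbours on chromosome 10. For Sult1b1 they were Abcc6 (0.95), Hist4h4 (0.90) and Rcbtb1 (0.90), and for Sult1d1 Abca3 (0.88), Abcc6 (0.86) and Limd2 (0.84). For Sult1e1 they were Stap1 on the same chromosome (0.87), Mon2 (0.81) and Mepce (0.80), and for Sult1a1 the paraoxonase gene Pon1 (0.83), Ces1d (0.82) and Acss3 (0.82). For Sult1c2 they were Fzd1 (0.87), Chrac1 (0.86) and Echdc3 (0.83). For Sult5a1 they were Ehd3 (0.83), the steroid reductase gene Srd5a2 (0.82) and Jmjd8 (0.72). All r values of these most alike genes are over the 32 groups, CC032 included. Sult1b1 and Sult1d1 were both low in CC032, and how far their values with Abcc6, Abca3 and the others rest on that strain was not tested.

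Among 14 other cytosolic sulfotransferase genes 9 were tested, and most were lower in males. On control 7 of 9 were lower in males and 1 higher, where 18.8% of all genes were lower and 24.8% higher. The median difference was -5.41, against 0.02 over all genes. Sult2a3, Sult2a4, Sult2a5 and Sult2a6 averaged 0.21 to 0.65 in males on either diet, so only their female values brought them into the test. That count and median therefore describe the genes tested and are no test of the family. How far the Sult2a genes share reads was not measured. Gm4794, the entry of Sult3a2, differed by -7.38 ± 0.24 (adjusted p = 1.26e-42, limma). Sult2a1, Sult2a2, Sult2a3, Sult2a4, Sult2a5 and Sult2a6, of a subfamily that sulfonates steroids and bile acids, had differences between -6.95 ± 0.29 for Sult2a2 and -4.00 ± 0.23 for Sult2a3. Sult2a8, a bile acid sulfotransferase of mouse liver, was higher in males (0.80 ± 0.12, adjusted p = 1.45e-08). On HF/HS against control, Gm4794 was lower in females (-0.94 ± 0.24, adjusted p = 0.00397, limma), 1 of 9, where 8.08% of all genes were lower. Over both sexes 0 of the 9 passed in limma, where 32.6% of all genes did, and 1, Gm4794, had an unadjusted p under 0.05.

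Of 16 genes that supply or recycle the sulfate donor 14 were tested, and 3 rose over all strains and both sexes with none lower, a share near the 17.2% of all genes that rose. They were Ethe1 (0.26 ± 0.06, adjusted p = 0.000731, limma) and Suox (0.20 ± 0.04, adjusted p = 3.37e-05), which oxidise sulfur to sulfite and sulfate in mitochondria, and Bpnt1 (0.07 ± 0.02, adjusted p = 0.00918), which breaks down the spent donor. Papss1 (-0.06 ± 0.05) and Papss2 (-0.12 ± 0.06), which make PAPS and were picked out after their values were seen, did not pass. By sex on control, 5 were higher and 2 lower in males, where 24.8% of all genes were higher and 18.8% lower. Among them, Papss1 (0.34 ± 0.07, adjusted p = 8.01e-05, limma) and Papss2 (-0.90 ± 0.09, adjusted p = 2.83e-14) differed in opposite directions. Of 13 genes of sulfatases, which remove sulfate, and their activator, 10 were tested. Over all strains and both sexes 7 of the 10 rose on HF/HS and none fell, where 17.2% of all genes rose and 15.4% fell. Among them were Arsa (0.25 ± 0.05, adjusted p = 7.43e-06, limma) and Arsg (0.28 ± 0.06, adjusted p = 0.000289). In females alone 5 rose and 1 fell, where 9.6% of all genes rose and 8.08% fell. In males alone 5 rose and 0 fell, where 11% rose and 9.93% fell.

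Of the other lists over all strains and both sexes, where 17.2% of all genes rose and 15.4% fell, HF/HS livers had 5 higher and 4 lower of 17 sex steroid genes, among them Hsd17b7 (-0.75 ± 0.04, adjusted p = 4.9e-26, limma) and Hsd17b11 (0.50 ± 0.05, adjusted p = 1.01e-12). They had 4 higher and 5 lower of 20 glucuronosyltransferases, with Ugt1a5 the farthest (-1.10 ± 0.11, adjusted p = 1.08e-13), and 4 higher and 5 lower of 25 receptors and regulators, among them the estrogen receptor gene Esr1 (-0.23 ± 0.05, adjusted p = 0.000299), the retinoid-related receptor gene Rora (-0.15 ± 0.04, adjusted p = 0.000538) and Stat5a (0.18 ± 0.04, adjusted p = 0.000585). Of 16 male-biased genes 6 were higher and 2 lower, of 20 female-biased genes 3 and 6, and of 15 acute-phase genes 3 and 2. In males alone the female-biased list had 8 higher and 2 lower and the male-biased list 2 and 1, where 11% of all genes were higher and 9.93% lower. In females alone the female-biased list had 0 higher and 9 lower and the male-biased list 6 and 2, where 9.6% of all genes were higher and 8.08% lower.

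Some cell type markers passed the same test, as did 32.6% of all genes. Of 11 hepatocyte markers 7 were lower and none higher on HF/HS. Their summed level was 23390 to 84970 on HF/HS (median 68690), against 47700 to 212600 on control (median 73760). Of 12 macrophage markers 6 were higher and none lower, with sums of 97.6 to 2039 on HF/HS (median 588.8) and 197 to 1783 on control (median 498). No marker of either list was at 0 in every library. Of the tested markers, 4 of 10 stellate, 1 of 2 bile duct, 3 of 7 endothelial, 2 of 2 fat cell and 1 of 1 intestine and kidney markers were higher, the 1 pancreas marker tested had an unadjusted p under 0.05 but did not pass, and no marker of these lists was lower. Their part in the differences of the 7 sulfotransferase genes was not tested.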

How the data were processed

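Liver RNA from 10 Collaborative Cross strains was sequenced by the submitters. The labels' protocols give 500 ng of RNA per library and name both a kit that depletes ribosomal RNA and an mRNA kit. Cufflinks 2.2.1, Bowtie2 2.2.5.0, TopHat2 2.1.1 and the mm10 build are listed, with no role or order, per the submitters' processing notes. The deposited values are a normalised signal per gene whose upper quartile was 9.983 to 10 in every library; the unit, the scaling formula and the read depth are not given in the sources used here, so no counting interval could be given. One entry lacking a value was dropped, and 821 rows that share a symbol were kept apart by locus.

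Columns of a CC040 female control and a CC040 female HF/HS library held equal values in 24882 rows. Since neither label could be preferred, both were left out. Whether the 3 libraries of a group stand for 3 mice is not given in the labels. The p-values therefore reflect variation among libraries alone, and that variation may be technical.

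Values were tested as log2(value + 1) in limma 3.58.1 (R 4.3.3, statmod 1.5.0), with 1 mean for each of 40 groups, a shared spread and a trended robust prior, two-sided, with Benjamini-Hochberg adjustment over the 12203 genes whose mean was at least 1. Calls are at an adjusted p under 0.05. The calculation was tested on simulated data. Alternatives were a filter at 5 or none, pseudocounts of 0.1 and 5, quantile and size factor scaling, a prior without trend, library weights, replicate blocks, strains as units, all 120 columns, and leaving out strains, replicates or single libraries. Sequences, coordinates and identities came from RefSeq and GENCODE tables of the same build, read with Python 3.11.15 and Biopython 1.88.

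The 7 genes and all lists were chosen with earlier results of these data known. Besides the 7 genes, the text gives from each list up to 4 genes with the lowest p in a comparison, and for each of the 7 the 3 genes most like it in group means. Papss1, Papss2, Sult2a1, Sult2a3, Sult2a5, the chromosome 5 neighbours and the library checks were named after their values were seen. The lists were other sulfotransferases, sulfate donor supply, sulfatases, sex steroid handling, glucuronosyltransferases, receptors and regulators, male-biased, female-biased and acute-phase genes, and markers of hepatocytes, macrophages, stellate cells, bile duct, endothelium, fat cells, pancreas, and intestine and kidney.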

Additional observations from a re-analysis of the deposited data

Results flagged for a closer look

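Diet effects that differed between the 10 strains, by the limma F test of that difference itself, set Sult1e1 (adjusted p = 0.0187) and Sult1a1 (adjusted p = 0.0282) apart from the other 5 genes. For Sult1e1 the adjusted p ran from 0.000118 to 0.198 over 38 alternatives, the highest being without CC041. For Sult1a1 it ran from 0.00189 to 0.153.

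Male minus female differences on the control diet that differed between strains, in an F test added after the data had been seen, did so for Sult1a1 (adjusted p = 9.34e-06, limma), Sult1e1 (adjusted p = 0.000169), Sult1d1 (adjusted p = 0.000204) and Sult3a1 (adjusted p = 0.00456). Over 38 alternatives Sult1a1 reached at most 0.00443 and Sult1d1 at most 0.0098, so both passed throughout. Sult1e1 reached 0.164 without CC042, and Sult3a1 reached 0.599 without CC040 and 0.609 without the second female control replicate of every strain.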

How the results depend on the processing

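Of the 7 genes, the numbers called were 3 in males, 1 in females and 3 over both sexes for diet, 2 for diet effects between strains, 6 over the single strains and sexes, 5 for sex on either diet and 4 for sex differences between strains. None of the called diet differences, and none of the called sex differences averaged over strains, changed sign under any alternative run. Sex differences within single strains were not run under the alternatives. In females the diet called 2 with a pseudocount of 5, a filter at a mean of 5, size factor scaling, a prior without trend, library weights or either replicate block, the second gene being Sult3a1. With strains as units the diet called 0 of the 7 genes in females, in males and over both sexes, and 556, 685 and 2072 of all genes, against 2157, 2555 and 3975 with libraries as units; the male minus female diet effect called 0 genes of all, against 107, and sex called 3 of the 7 and 3268 genes on HF/HS and 3087 genes on control, against 5543 and 5312. Library weights, which ran from 0.0333 to 11.4, called 23 differences within strains and sexes, all 7 genes for diet effects and for sex differences between strains (5126 and 5789 of all genes, against 676 and 1518), 3497 genes for diet in females, 4335 in males and 533 for the male minus female diet effect. Diet effects between strains called 1 of the 7 with a pseudocount of 5, 1093 genes without a filter and 450 with a filter at 5. Without CC003 and CC060, the diet called 1 of the 7 in males and 1 between strains, and the male minus female diet effect 60 genes. The cause of these shifts was not tested.

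Leaving out 1 strain, replicate or library at a time, over 26 settings, the numbers of the 7 genes called ranged from 0 to 2 for diet in females, 1 to 4 in males, 2 to 4 over both sexes, 0 to 3 between strains, 3 to 9 within strains and sexes, 0 to 1 for the male minus female diet effect, 4 to 5 for sex on HF/HS, 5 to 5 on control and 3 to 6 for sex differences between strains. For all genes the ranges were 1396 to 2663, 1842 to 2738, 3177 to 4461 and 283 to 994 for diet in females, in males, over both sexes and between strains, 34 to 132 for the male minus female diet effect, 4538 to 6009 and 4269 to 5448 for sex on HF/HS and on control, and 855 to 2137 for sex differences between strains. Tests between strains on the control diet called 7 to 7 and 5268 to 9257 in females and 6 to 7 and 6292 to 9571 in males.

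Over 58 pairs of same-numbered libraries of a strain and sex, r ran from -0.222 to 0.364 with a median of -0.012 and 9 above 0.1, so the numbers pair no samples in general. CC041 females were an exception, with 0.364, 0.266 and 0.249 in their 3 pairs. With the replicate block, the diet in females called 2137 genes over all groups and 2228 within strain and sex, Sult3a1 among them (adjusted p = 0.0489 and 0.0495, limma), and no other count of the 7 genes changed. Depth is unknown, and low values such as those of Sult1e1 in CC003 and CC032 could not be told from failed estimates.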
